A study of Homo sapiens with 8 samples.

Results

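Peaks of BRG1 and of Flag-tagged actin were examined at 10 genes of the TGF-beta pathway, out of 20033 protein-coding genes: the receptors TGFBR1 and TGFBR2, the signal transducers SMAD2, SMAD3 and SMAD4, the inhibitory SMAD6 and SMAD7, and the corepressors SKI, SKIL and TGIF1. The genes were chosen by name, with earlier results of these data known, and all 10 matched the RefSeq gene table. A peak belonged to a gene when it overlapped the annotated span or the 10 kb on either side. Over the 10 windows the BRG1 lists held 20 peaks in SETD3 KO1, 34 in KO2 and 83 in control cells, and the Flag-actin lists held 6, 12 and 24. SMAD3 and TGFBR2 held most of the BRG1 peaks, and SKI held the most Flag-actin peaks in control cells.

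The series used CUT&RUN, which sequences the DNA that an antibody-tethered nuclease cuts loose around a chromatin protein. All 8 libraries came from HCT-116, a human colorectal carcinoma line, grown with serum and with no added TGF-beta named in the labels. For BRG1, the ATPase of SWI/SNF chromatin remodellers encoded by SMARCA4, there were libraries of SETD3 knockout cells numbered KO1 and KO2, 1 library of control cells and 1 IgG library of control cells. The arm for Flag-tagged wild type actin had the same layout. SETD3 methylates a histidine of actin. From the labels it is not known whether KO1 and KO2 stand for different clones, which promoter drives the Flag-actin construct, or whether the cells of the Flag arm IgG library, whose title also has the word Empty, carried it. With 1 control library per antibody no test between KO and control cells could be made, and no p-value is given. Peaks also cannot show whether the SETD3 protein was lost.

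TGF-beta binds TGFBR2, a kinase that recruits and phosphorylates the type I receptor TGFBR1. TGFBR1 then phosphorylates SMAD2 and SMAD3, which join SMAD4 and act on genes in the nucleus, often together with AP-1 and other factors. SMAD6 and SMAD7 are induced by the pathway and restrain it, while SKI, SKIL and TGIF1 recruit histone deacetylases to SMAD complexes. The pathway restrains growth of normal colon epithelium and is often mutated in colorectal cancer. HCT-116 is a mismatch repair deficient line known to carry inactivating mutations of TGFBR2.

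The sequences shown here lie at or upstream of annotated starts, from the RefSeq start windows of GRCh38.p14. A start is called touched where a BRG1 control peak overlapped its window, and the sequences show what kind of start that was. They are a selection, 1 start each for SMAD3 and SMAD7, at which KO1, KO2 and control cells all had a peak, 1 of 2 touched for TGFBR1, and both for TGFBR2. The touched starts of TGIF1 and the outermost start of SMAD3 are not shown. Windows were listed for 9 of the 10 genes, and SKI had none. The SMAD3 sequence lies at chr15:67125492-67125741 on the plus strand, before an internal start of the gene, and was touched by BRG1 peaks in KO1, KO2 and control cells. The TGFBR2 sequence, before the outermost start, lies at chr3:30606106-30606355 on the plus strand and was touched in control cells only. The SMAD7 sequence lies at chr18:48942808-48943057 on the minus strand, before an internal start, and was touched in all 3 libraries. The TGFBR1 sequence lies at chr9:99104833-99105082 on the plus strand and was touched in control cells only, by a peak that ended 63 bases before the start. A piece of 30 bases at the other TGFBR2 start, chr3:30606584-30606613 on the plus strand, is shown because BRG1 peaks of KO1, KO2 and control cells all covered the motif in it. Capitals mark TGANTCA, the AP-1 type motif, searched on both strands.
SMAD3 internal start: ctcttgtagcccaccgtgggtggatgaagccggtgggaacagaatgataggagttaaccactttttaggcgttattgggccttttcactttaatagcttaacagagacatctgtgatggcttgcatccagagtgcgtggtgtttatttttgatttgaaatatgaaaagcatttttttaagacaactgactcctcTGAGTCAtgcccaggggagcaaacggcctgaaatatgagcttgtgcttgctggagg
TGFBR2 outermost start: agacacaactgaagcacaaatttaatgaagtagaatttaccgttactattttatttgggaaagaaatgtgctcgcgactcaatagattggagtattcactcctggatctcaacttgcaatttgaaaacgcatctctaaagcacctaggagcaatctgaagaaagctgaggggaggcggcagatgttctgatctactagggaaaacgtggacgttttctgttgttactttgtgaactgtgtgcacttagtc
TGFBR2 next start: ttgaagttgagTGAGTCActcgcgcgcacg
SMAD7 internal start: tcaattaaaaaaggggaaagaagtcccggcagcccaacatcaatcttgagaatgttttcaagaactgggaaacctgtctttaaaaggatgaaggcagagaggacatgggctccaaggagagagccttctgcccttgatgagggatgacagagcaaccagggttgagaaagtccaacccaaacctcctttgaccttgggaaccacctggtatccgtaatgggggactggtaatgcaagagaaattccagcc
TGFBR1 start: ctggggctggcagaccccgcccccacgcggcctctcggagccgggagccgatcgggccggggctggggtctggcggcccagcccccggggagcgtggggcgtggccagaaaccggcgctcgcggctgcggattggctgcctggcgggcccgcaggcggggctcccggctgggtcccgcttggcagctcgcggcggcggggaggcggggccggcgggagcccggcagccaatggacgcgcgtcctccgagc
The TGFBR1 sequence was the richest in G and C of the 4 longer ones, at 81.2% with 34 CpG, against 44.8%, 40.8% and 48.4% with 5, 7 and 2 CpG for SMAD3, TGFBR2 and SMAD7.

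Peaks were read against lists that differ in length. The BRG1 lists kept 23784 peaks in KO1, 32038 in KO2 and 53270 in control cells, and the Flag-actin lists 27249, 35892 and 38902. Peaks free of overlap with the IgG list of their own arm numbered 7012, 13220 and 34689 in the BRG1 arm, and 13481, 21838 and 26178 in the Flag-actin arm. In each list the maximum signal of a peak moved in equal steps, to within 0.05 steps for all values below 200 steps. That step measured 11.5 signal units in BRG1 KO1, 9.09 in BRG1 KO2 and 4.38 in the BRG1 control, and 9.69, 8.40 and 21.5 in the Flag-actin lists. A step may stand for 1 read of scaled coverage, but the scaling and the read depth are not given in the sources used here. The part of depth and list length in the counts that follow was not tested. Signal was therefore used only to rank peaks within a list, as a percentile of total signal in which 100 is the highest.

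Free of IgG overlap, the 10 genes held 15 BRG1 peaks in KO1, 30 in KO2 and 77 in control cells. SMAD3 alone held 6, 14 and 43 of them, and TGFBR2 held 5, 6 and 18. Genes with at least 1 such BRG1 peak numbered 5 in KO1, 7 in KO2 and 8 in control cells, where the shares of all genes were 20.2%, 35.8% and 61.8%. Each KO list held fewer BRG1 peaks than the control list at 7 genes, SMAD3, SMAD4, SMAD6, SMAD7, TGFBR1, TGFBR2 and TGIF1, against 47.9% of all genes. At SMAD4 and TGFBR1 neither KO list held a peak and the control list did, which is 2 of 10 genes against 26.2% of all genes. No gene of the 10 had more BRG1 peaks in each KO list (1.02% of all genes) or peaks in both KO lists and none in control cells (0.869%).

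**Figure D1:**
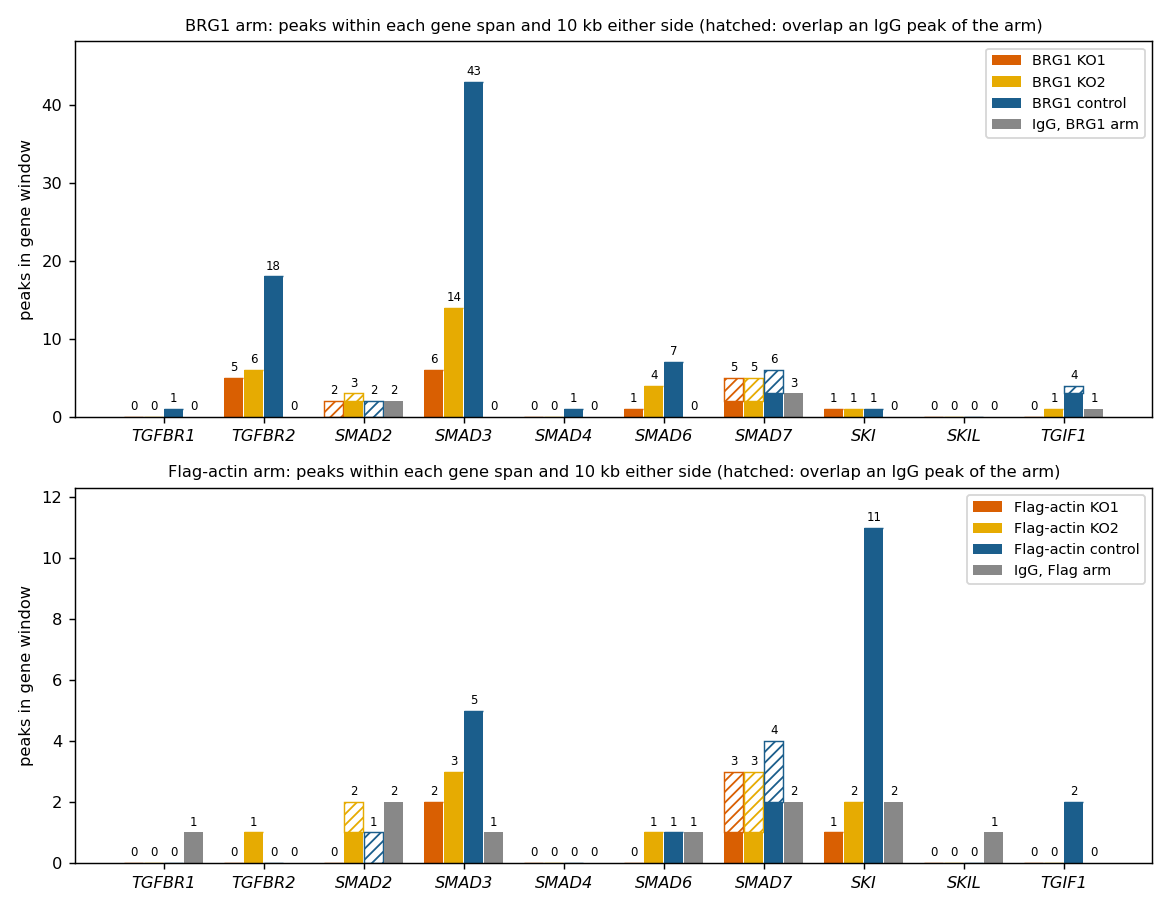
Number of peaks in the window of each gene (span and 10 kb either side), with BRG1 above and Flag-actin below. Bars are KO1, KO2, control and IgG from left to right, and hatched parts overlap an IgG peak of the arm. SMAD3 stands out for BRG1 with 6, 14 and 43 peaks, and SKI for Flag-actin with 1, 2 and 11.

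As a share of all IgG-free peaks of a list, the 10 genes held nearly the same part of each BRG1 list, 0.214% in KO1, 0.227% in KO2 and 0.222% in control cells. Without SMAD3 these shares were 0.128%, 0.121% and 0.0980%. When each list was shortened to its 23784 highest peaks by total signal, the length of the shortest, 15, 19 and 35 IgG-free BRG1 peaks remained in the windows, among 7012, 6733 and 9359. At equal list length the shares were 0.214%, 0.282% and 0.374%. Windows of the 10 genes were longer than most, with a median of 87.7 kb against 44.1 kb over all genes.

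Flag-actin peaks were fewer. The 10 genes held 4 IgG-free peaks in KO1, 9 in KO2 and 21 in control cells, which made up 0.0297%, 0.0412% and 0.0802% of the lists. Genes with at least 1 such peak numbered 3 in KO1, 6 in KO2 and 5 in control cells, against 32.4%, 45.6% and 48.3% of all genes. SKI, SMAD3, SMAD7 and TGIF1 held fewer in each KO list than in control cells, 4 of 10 genes against 28.5% of all genes. TGIF1 was the 1 gene with no peak in either KO list and a peak in control cells, against 12.6% of all genes. None of the 10 had more Flag-actin peaks in each KO list (6.62% of all genes) or peaks in both KO lists only (5.19%). SKI held 11 of the 21 control peaks, and without SKI the share was 0.0272% in the KO mean and 0.0382% in control cells.

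TGFBR2, the type II receptor gene on chromosome 3 from 30606356 to 30694142, held 5 BRG1 peaks in KO1, 6 in KO2 and 18 in control cells, with no IgG peak of either arm in its window. Of all genes, 73 held at least 18 control peaks, and by density, 16.7 peaks per 100 kb, 314 were at or above it. The peaks covered 0.752%, 1.22% and 4.57% of the window. All 5 KO1 peaks and 4 of the 6 KO2 peaks overlapped a control peak, and 3 control peaks had a counterpart in both KO lists.

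The first of the shared TGFBR2 sites lay upstream of the gene. It spanned 30597421 to 30597580 in KO1, at the 50.5 percentile of its list, 30597381 to 30597580 in KO2, at the 64.2 percentile, and 30597091 to 30597470 in control cells, at the 81.55 percentile. It was the highest ranked TGFBR2 site in each KO list. KO1 and control cells also met at the edge of the window, from 30596191 to 30596390 (41.6 percentile) and from 30596161 to 30596370 (45.2). The second lay on the inner of the 2 annotated starts, at 30606531 to 30606660 in KO1 (15.5 percentile), 30606451 to 30606730 in KO2 (52.1) and 30606531 to 30606770 in control cells (26.4). In control cells a further peak from 30606231 to 30606490 covered the outermost start at the 75.7 percentile. The start region is also annotated to LOC105377015, from 30604399 to 30606924 on this chromosome, so peaks there cannot be assigned to either gene.

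The third shared TGFBR2 site lay 53 kb inside the gene. KO1 had peaks there from 30659311 to 30659440 (33.5 percentile) and from 30659581 to 30659770 (49.1). KO2 had them from 30659241 to 30659450 (62.05) and from 30659651 to 30659950 (48.6). Control cells had their highest ranked TGFBR2 peak there, from 30659241 to 30659760 at the 88.35 percentile. A control peak near the far end of the gene, from 30689161 to 30689600 at the 82.9 percentile, had no counterpart in either KO list. Between 15 and 26 kb from the start, KO1 held no BRG1 peak, KO2 held 1, and control cells held 6, none of which overlapped that of KO2. Flag-actin had a single TGFBR2 peak, in KO2, from 30695571 to 30695780 beyond the far end of the gene, at the 45.1 percentile.

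**Figure D2:**
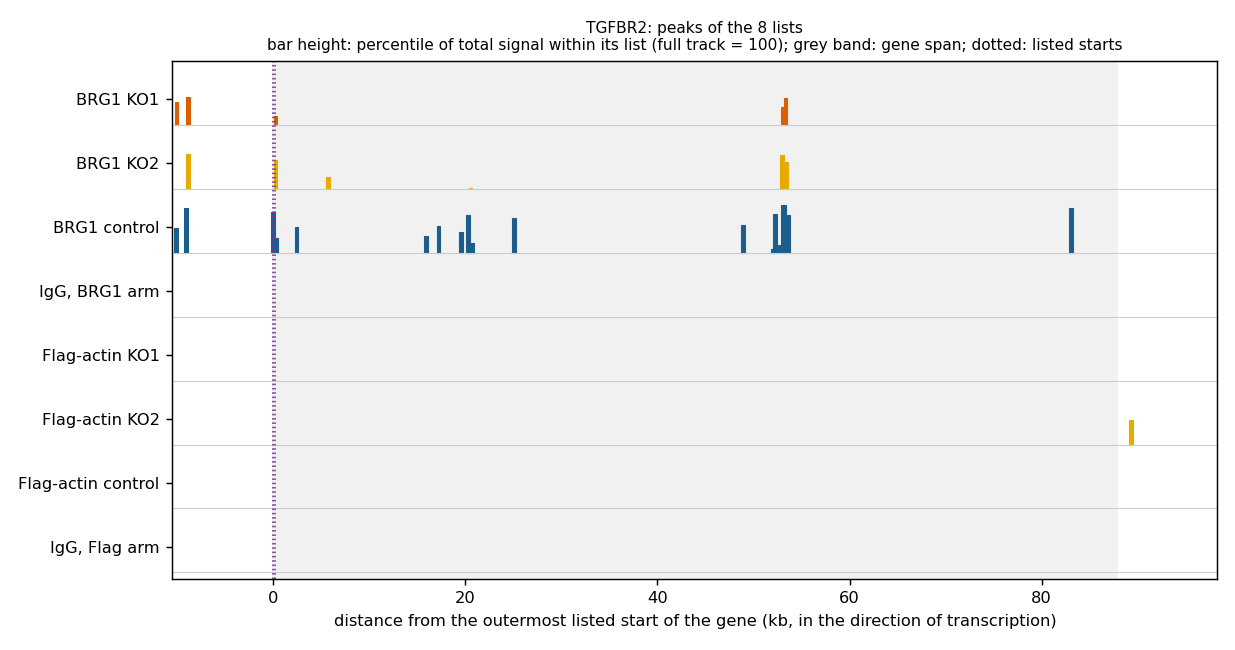
Peaks at TGFBR2 by distance from the outermost annotated start in kb, 1 track per list, with bar height as the percentile of total signal within the list and narrow peaks widened to stay visible. All 5 BRG1 peaks of KO1 and 4 of the 6 of KO2 overlap control peaks, upstream, at the start and about 53 kb inside the gene, and the other 2 of KO2 do not.

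TGFBR1, the type I receptor gene on chromosome 9 from 99103647 to 99154192, held no BRG1 peak in KO1 or KO2 and 1 in control cells. That peak, from 99104781 to 99105020, lay among the annotated starts at the 30.8 percentile, in the lower part of the list. No Flag-actin library had a peak at TGFBR1, and the Flag arm IgG list had 1.

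SMAD3, the receptor-activated SMAD that binds DNA directly, lies on chromosome 15 from 67065602 to 67195169. It held 6 BRG1 peaks in KO1, 14 in KO2 and 43 in control cells, and the BRG1 arm IgG list had none there. Genes with at least as many peaks, SMAD3 included, numbered 40, 9 and 7 of 20033 in these lists. The density in control cells was 28.75 peaks per 100 kb, against a median of 1.42 over all genes, and 43 genes were at or above it. SMAD3 made up 0.0856%, 0.106% and 0.124% of the IgG-free BRG1 peaks of the lists. With lists of equal length it held 6, 10 and 22 peaks, so the KO lists remained below the control list.

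The SMAD3 control peaks fell into runs, taken as peaks less than 5 kb apart. The longest, over 14.05 kb from 67096721 to 67110770, held 3 peaks of KO1, 5 of KO2 and 14 of control cells. A run of 6 control peaks from 67120091 to 67127720 held the internal start shown above, and a run of 5 control peaks from 67146411 to 67150800 held the highest control peak. Neither KO list had a peak in the run of 5 control peaks from 67134191 to 67140620. At the outermost start neither KO list had a peak, and control cells had one from 67065571 to 67065870 at the 45.2 percentile.

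BRG1 peaks of all 3 libraries met at 4 SMAD3 control peaks. In the longest run, KO1 had a peak from 67105321 to 67105630 (63.7 percentile), KO2 had peaks from 67105251 to 67105400 (34.8) and from 67105411 to 67105820 (77.2), and the control peak ran from 67105251 to 67105930 (86.4). About 1 kb further on, KO1 had a peak from 67106901 to 67107070 (71.0), KO2 from 67106971 to 67107070 (59.6), and control cells had the same interval as KO1 (85.5). These were the highest ranked SMAD3 sites of both KO lists.

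The other 2 shared SMAD3 sites ranked highest in control cells and, by their highest peak, below the first 2 in each KO list. The median percentile of IgG-free BRG1 peaks was 19.9 in KO1, 26.1 in KO2 and 36.8 in control cells. Total signal sums over a peak, so wide peaks can rank higher, and the part of width was not tested. Over the internal start KO1 had a peak of 220 bp from 67125621 to 67125840 (26.9 percentile), and KO2 had 3 peaks between 67125051 and 67125820 (35.5, 31.2 and 36.2). The control peak there spanned 1260 bp from 67124901 to 67126160 (89.7). At the other site KO1 had a peak from 67148431 to 67148670 (11.3), and KO2 had peaks from 67148451 to 67148640 (24.8) and from 67150171 to 67150380 (37.7). The control peak there was the widest and highest at SMAD3, 2040 bp from 67148441 to 67150480 (91.85). The order of the 4 sites therefore differed between the lists: the widest site came last in KO1 and led in control cells.

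Further named SMAD3 peaks by rank were 67064071 to 67064340 in KO1, upstream of the gene at the 61.6 percentile, and 67076321 to 67076510 in KO2 at the 54.5 percentile. Both overlapped a control peak. In all, 6 of 6 KO1 peaks and 13 of 14 KO2 peaks of SMAD3 lay on a control peak, where over the whole lists 38.1% of KO1 and 39.0% of KO2 peaks free of IgG did. Control peaks were denser at SMAD3 than at most genes, which leaves more to overlap, so these shares are not like for like. The window also reaches AAGAB, in which no peak lay.

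**Figure D3:**
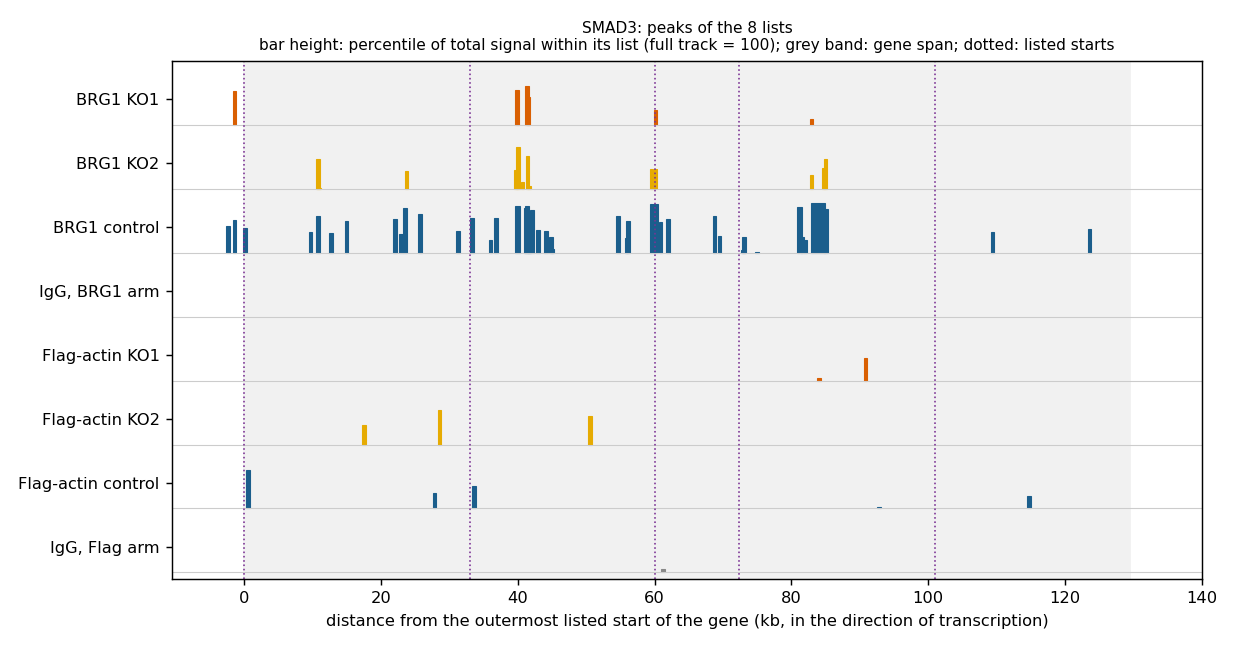
Peaks at SMAD3 by distance from the outermost annotated start in kb, 1 track per list, with bar height as the percentile of total signal within the list and narrow peaks widened to stay visible. Most of the 6 KO1 and 14 KO2 BRG1 peaks sit near 40, 60 and 83 kb, with 1 of KO1 upstream of the gene and 3 of KO2 between 10 and 24 kb. No Flag-actin peak overlaps one of another Flag-actin list.

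Flag-actin peaks at SMAD3 numbered 2 in KO1, 3 in KO2 and 5 in control cells, and no site was shared between these libraries. The KO1 peaks lay from 67156361 to 67156460 (40.6 percentile) and from 67149561 to 67149670 (4.86). The KO2 peaks lay from 67094001 to 67094310 (62.7), from 67116041 to 67116350 (52.7) and from 67083001 to 67083220 (36.0). In control cells the highest lay from 67066011 to 67066430, within 1 kb of the outermost start, at the 70.4 percentile. A second control peak, from 67099001 to 67099440 (40.4), overlapped the BRG1 control peak from 67098841 to 67099080 (63.4), and at the 10 genes this was the 1 overlap of the antibodies in control cells with both peaks free of IgG. The control peak from 67093251 to 67093580 ranked next (29.0). The KO1 Flag-actin peak at 67149561 lay within the widest BRG1 control peak.

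SMAD2, the other receptor-activated SMAD of the pathway, on chromosome 18 from 47808957 to 47930872, held no IgG-free BRG1 peak in KO1, 2 in KO2 and none in control cells. The KO2 peaks lay from 47930611 to 47930810 over an annotated start, at the 57.1 percentile, and from 47883681 to 47883740 at the 5.72 percentile. All other BRG1 peaks of SMAD2 overlapped IgG peaks of 30 and 50 bp. One such place, 47841581 to 47841610, was held by KO1, KO2 and control cells (29.6, 59.6 and 40.5 percentiles) and by the BRG1 arm IgG list (45.35). The other, 47916971 to 47917020, was held by KO1 and control cells (27.7 and 43.9), by Flag-actin KO2 and control cells (46.4 and 16.8) and by both IgG lists. Flag-actin had 1 IgG-free SMAD2 peak, in KO2, from 47931661 to 47931760 just upstream of the gene (3.08 percentile). SMAD4, the partner shared by all activated SMADs, on chromosome 18 from 51030213 to 51085042, held no BRG1 peak in KO1 or KO2 and 1 in control cells, from 51082951 to 51083220 near the far end of the gene at the 59.1 percentile. It held no Flag-actin peak and no IgG peak.

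SMAD6, an inhibitory SMAD on chromosome 15 from 66702236 to 66782849, held 1 BRG1 peak in KO1, 4 in KO2 and 7 in control cells. The KO1 peak, from 66748361 to 66748580 (33.8 percentile), had no control counterpart. The highest KO2 peak lay upstream of the start from 66701131 to 66701380 (59.05), followed by 66774391 to 66774610 (39.1), and neither had one. The 1 shared site ran from 66765971 to 66766190 in KO2 (24.0) and from 66765791 to 66766190 in control cells, where it was the highest SMAD6 peak (80.3). Control peaks from 66785091 to 66785320 (59.1) and from 66763631 to 66764090 (58.1) came next. Control cells had no BRG1 peak at the SMAD6 start. Flag-actin had a SMAD6 peak from 66781251 to 66781450 in KO2 (35.7) that overlapped one from 66781021 to 66781540 in control cells (71.6), the 1 IgG-free Flag-actin site held by a KO and the control library among the 10 genes.

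SMAD7, the inhibitory SMAD that targets the receptor, lies on chromosome 18 from 48919853 to 48950965 and is read from its higher end. Its window held 5 BRG1 peaks in KO1, 5 in KO2 and 6 in control cells, of which 3 in each list overlapped IgG peaks. A site from 48954541 to 48954590 upstream of the gene was present in all 8 lists. It ranked at the 96.65, 98.9 and 99.8 percentiles of the BRG1 lists of KO1, KO2 and control cells, at the 99.5, 99.7 and 99.8 percentiles of the Flag-actin lists, and at the 99.5 percentile of both IgG lists. A site at 48960641 was also in all 8 lists, between the 59.2 and 93.7 percentiles. A place from 48948161 to 48948190 was held by BRG1 KO1 (61.0), KO2 (67.8) and control cells (71.9) and by the BRG1 arm IgG list (60.7). Narrow peaks of high rank at SMAD7 thus lay where IgG gave a peak as well.

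Free of IgG, SMAD7 held 2, 2 and 3 BRG1 peaks. The 1 shared site lay on the internal start shown above, from 48942721 to 48942870 in KO1 (32.9 percentile), 48942661 to 48942850 in KO2 (48.6) and 48942591 to 48943050 in control cells (72.45). The peak was 150 bp wide in KO1, 190 in KO2 and 460 in control cells. The remaining peaks lay at separate places, from 48937671 to 48937780 in KO1 (10.8), from 48921031 to 48921160 in KO2 (5.72), and from 48913941 to 48914050 (45.7) and 48952881 to 48953210 (8.39) in control cells. Flag-actin held 1, 1 and 2 IgG-free peaks. The KO1 peak lay from 48920901 to 48921010 (2.93), and that of KO2, from 48948161 to 48948220 (58.75), overlapped a peak of the other arm's IgG list. In control cells they lay side by side from 48950181 to 48950330 (39.55) and from 48950361 to 48950520 (44.3), within 1 kb of the outermost start.

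SKI, which binds SMAD complexes and blocks their activity, lies on chromosome 1 from 2228319 to 2310213. It held 1 BRG1 peak in each of KO1, KO2 and control cells, at 3 different places: 2255624 to 2255743 in KO1 (26.1 percentile), 2301234 to 2301263 in KO2 (17.9) and 2282714 to 2282843 in control cells (13.7). All ranked in the lower part of their lists, where IgG-free BRG1 peaks had median percentiles of 19.9, 26.1 and 36.8. The KO1 peak lay above that median, and those of KO2 and control cells lay below it. Flag-actin differed from this: SKI held 1 peak in KO1, 2 in KO2 and 11 in control cells, none of them overlapping IgG. Of all genes, 276 held at least 11 in the control list. The SKI window is long, and by density, 10.8 peaks per 100 kb, 1140 genes were at or above it. Cut to equal length, the Flag-actin lists held 1, 1 and 7 peaks at SKI.

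In KO1 the SKI Flag-actin peak lay from 2297394 to 2297483 (18.5 percentile), and in KO2 the peaks lay from 2315874 to 2316033 (45.1) and from 2312994 to 2313213 (1.72). None of these overlapped a control peak. The 11 control peaks ranged over percentiles from 2.53 to 82.5. The highest lay from 2247654 to 2248273, 620 bp wide, and the next from 2306454 to 2306823 (73.2) and from 2312254 to 2312453 (49.99). A run of 6 control peaks covered 12.01 kb from 2301604 to 2313613, across one end of the gene, and the lower ranked KO2 peak lay between peaks of that run. The Flag arm IgG list had 2 peaks in the SKI window, at 2271634 and 2305694, which overlapped none of the 11.

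**Figure D4:**
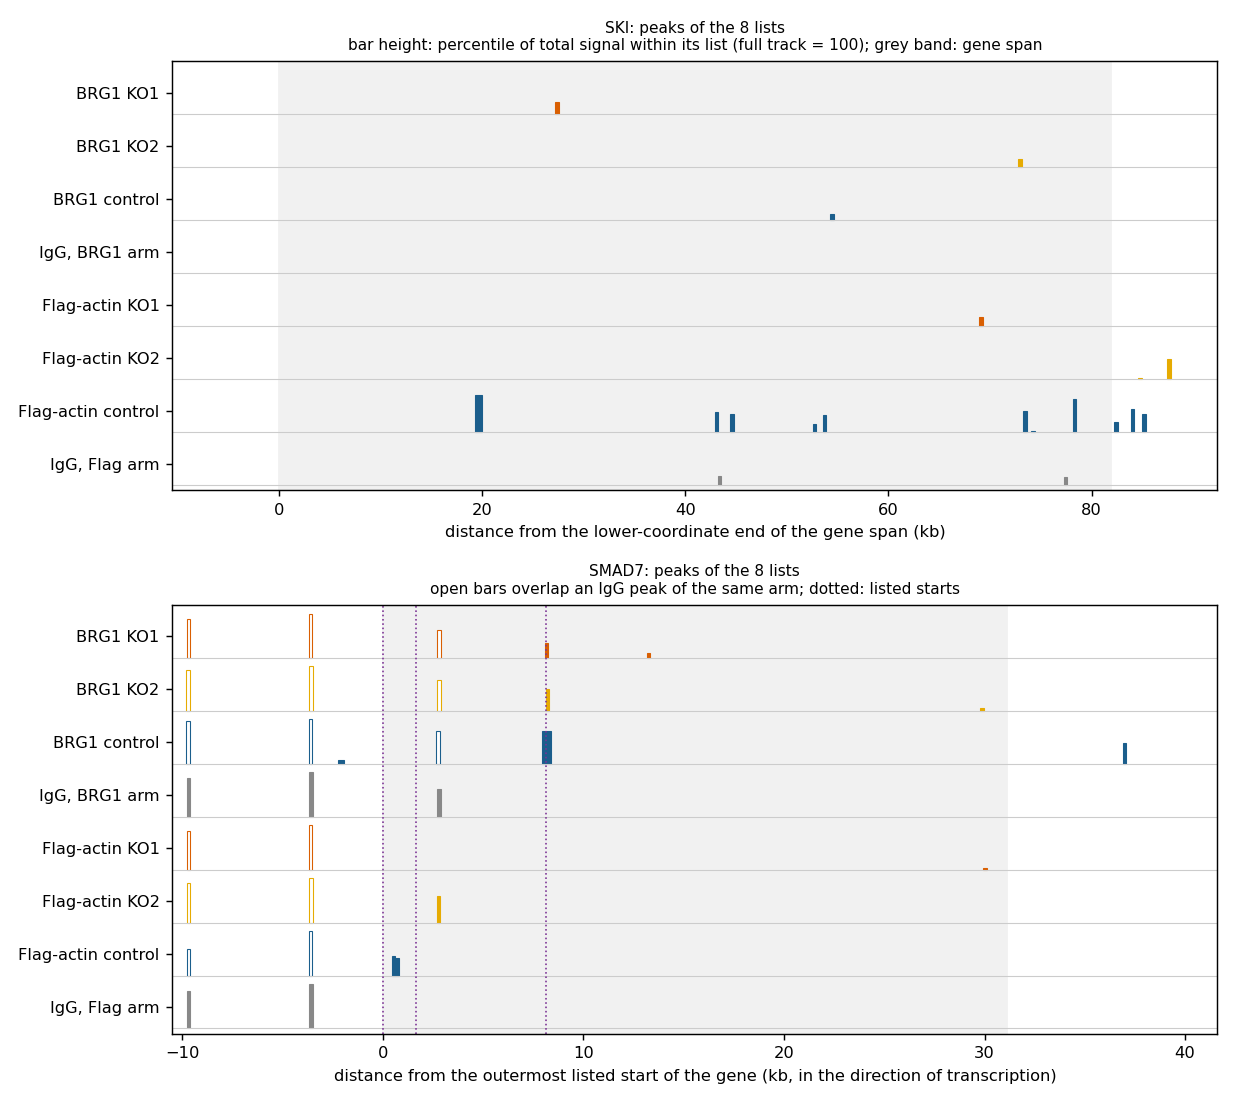
Peaks at SKI by distance from its lower-coordinate end (upper panel) and at SMAD7 by distance from its outermost start (lower panel), both in kb, 1 track per list, with bar height as the percentile within the list and narrow peaks widened to stay visible. SKI shows 11 Flag-actin peaks in control cells against 1 and 2 in KO1 and KO2. SMAD7 shows open bars, peaks that overlap IgG, upstream of the gene in every BRG1 and Flag-actin list. Peaks of the IgG lists are drawn filled.

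TGIF1, a homeodomain corepressor gene on chromosome 18 from 3412009 to 3459978, held no IgG-free BRG1 peak in KO1, 1 in KO2 and 3 in control cells. They lay at different places among its internal starts. The KO2 peak ran from 3448131 to 3448270 (60.4 percentile), and the control peaks ran from 3446661 to 3446910 (48.6), 3452471 to 3452660 (15.3) and 3449371 to 3449690 (1.89). A further control peak, from 3462881 to 3463070 (54.65), overlapped IgG. Flag-actin had 2 TGIF1 peaks, both in control cells, from 3408621 to 3408740 (66.4) and from 3462881 to 3462910 (39.2), the second of which overlapped the BRG1 arm IgG list. SKIL, which encodes the SKI relative SnoN, on chromosome 3 from 170357715 to 170396849, held no BRG1 or Flag-actin peak in any of the 6 antibody lists, and 1 peak of the Flag arm IgG list.

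Of the 83 BRG1 control peaks at the 10 genes, 60 were missing from both KO lists, 72.3% (exact Clopper-Pearson 95% interval 61.4 to 81.6), where the share over the whole list was 57.0%. Free of IgG, 59 of 77 had none, 76.6% (65.6 to 85.5), against 82.5% over the whole list, which lies inside the interval. These intervals cover counting error only, and neighbouring peaks of a gene are not independent. The peaks that did have a counterpart ranked higher in control cells, with a median percentile of 78.0, than those that did not, 40.5. Over the whole list the medians were 64.3 and 32.2. At SMAD3 they were 81.7 and 42.7. Peaks with a counterpart were also wider, with a median of 305 bp against 240 bp at the 10 genes and 280 bp against 200 bp over the whole list. The part of width in the ranks and overlaps was not tested.

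Seen from the KO lists, 12 of 15 IgG-free BRG1 peaks in KO1 (80.0%) and 19 of 30 in KO2 (63.3%) overlapped a control peak. SMAD3 and TGFBR2 supplied 11 of the 12 and 17 of the 19. Control peaks were denser at both genes, at 28.75 and 16.7 per 100 kb, than the median over all genes, 1.42, which leaves more to overlap there. Over the whole lists 38.1% and 39.0% did. A site held by both KO lists and absent from control cells was not found at any of the 10 genes. Such sites were also few over the lists, with 522 of 7012 BRG1 peaks in KO1, 514 of 13220 in KO2, and 1027 of 13481 and 1023 of 21838 Flag-actin peaks in KO1 and KO2, and nothing is read from their absence among the 15, 30, 4 and 9 peaks of the 10 genes.

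**Figure D5:**
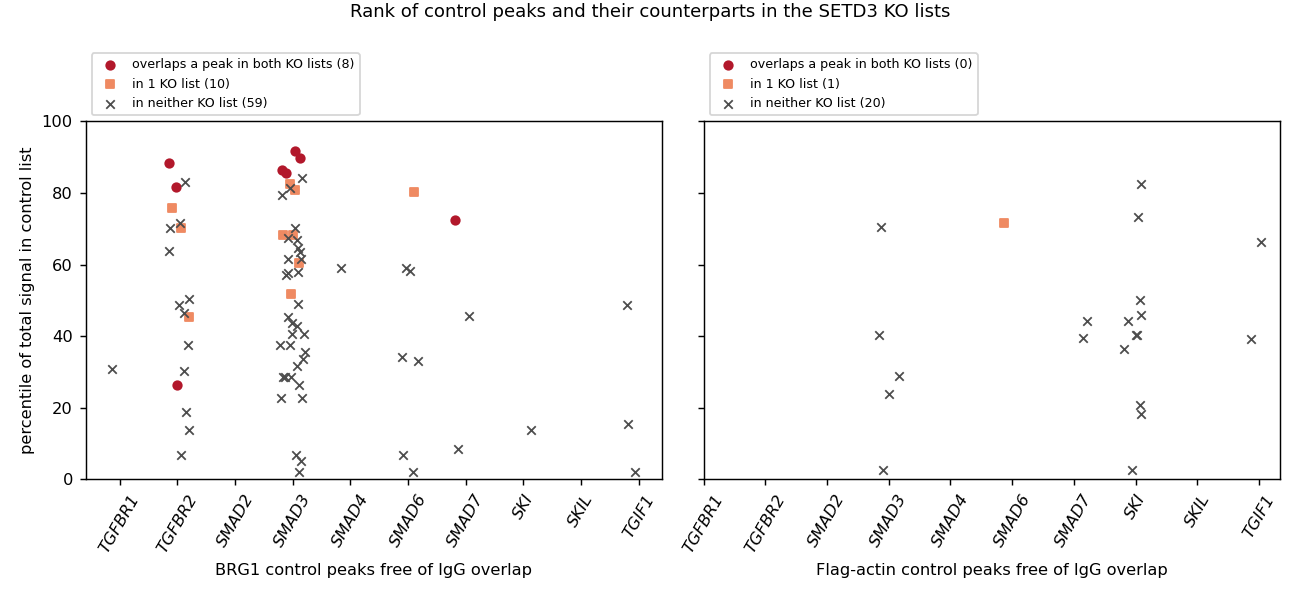
Percentile of total signal of each IgG-free control peak within its list, by gene, for BRG1 (left) and Flag-actin (right), with symbols for counterparts in both, 1 or neither KO list. For BRG1, 8 peaks had a counterpart in both and 10 in 1 KO list, mostly at high percentiles, and 59 had none. For Flag-actin 20 of 21 had none.

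For Flag-actin, 20 of 24 control peaks had no KO counterpart, 83.3% (62.6 to 95.3), against 62.6% of the whole list. Free of IgG it was 20 of 21, 95.2% (76.2 to 99.9), against 91.8%. None of the 4 peaks of KO1 and 1 of the 9 of KO2 overlapped a control peak, where 8.09% and 8.00% did so over the whole lists. Among IgG-free peaks, few Flag-actin positions were shared between libraries, at these genes as over the list.

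Overlap of the antibodies in control cells was low. Of the 83 BRG1 peaks, 5 overlapped a Flag-actin peak, 6.02% (1.99 to 13.5), against 26.5% of the whole BRG1 control list. Of the 24 Flag-actin peaks, 5 overlapped a BRG1 peak, 20.8% (7.13 to 42.1), against 36.1%. IgG overlap differed alongside, at 7.23% of the BRG1 control peaks of the 10 genes and 34.9% of the list. Among IgG-free BRG1 peaks 1 of 77 overlapped a Flag-actin peak, 1.30% (0.0329 to 7.02), and 5.09% did so over the list, which lies inside this interval.

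Most annotated starts of the genes had no peak. Of 30 start windows of 9 genes, each 250 bases before to 50 after a start, 3 held an IgG-free BRG1 peak in KO1 (2.33% of all 22198 windows), 5 in KO2 (7.37%) and 9 in control cells (21.0%). Windows of 1 gene can overlap, so they are not independent. The genes were SMAD3, SMAD7 and TGFBR2 in KO1, with SMAD2 and TGIF1 added in KO2, and SMAD3, SMAD7, TGFBR1, TGFBR2 and TGIF1 in control cells. No Flag-actin peak touched any of the 30 windows, and over all windows the shares were also low, 0.734% in KO1, 1.56% in KO2 and 2.7% in control cells.

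TGANTCA occurred in 5 of the 30 windows, 1 each of SMAD3 and TGFBR2 and 3 of TGIF1, and in 6.15% of all windows. BRG1 peaks of KO1, KO2 and control cells covered the motif itself at SMAD3, from 67125686 to 67125692, and at TGFBR2, from 30606595 to 30606601. No peak of any antibody list covered it at TGIF1. Over all windows with the motif, 2.42% held a BRG1 peak in KO1, 6.44% in KO2 and 17.6% in control cells, against 2.33%, 7.43% and 21.2% of windows without it. The SMAD palindrome GTCTAGAC occurred in 1 of the 30 windows, that of SMAD6, and in 0.216% of all windows, and no antibody peak covered it there. A match of letters is a description and not a binding site.

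Other genes of the pathway were taken from 5 lists of 53 genes. At least 1 IgG-free BRG1 peak lay at 11 of the 53 in KO1 (20.8%), 33 in KO2 (62.3%) and 38 in control cells (71.7%), against 20.2%, 35.8% and 61.8% of all genes. Fewer peaks in each KO list were held by 32 of the 53, against 47.9% of all genes. Among corepressors and modulators it was 1, 10 and 11 of 13. SMURF2, a ubiquitin ligase of the receptor complex, held 0, 2 and 12 peaks in KO1, KO2 and control cells. LTBP2 held 3, 2 and 14, and LTBP4, which encodes a carrier of latent TGF-beta, held 0, 2 and 10.

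Target genes held a BRG1 peak at 5 of 15 in KO1 (33.3%), 11 in KO2 (73.3%) and 11 in control cells (73.3%), to be read against the same shares of all genes. ZEB1, which encodes a repressor of epithelial genes and is named here after its values were seen, was the 1 gene of the 53 with more BRG1 peaks in each KO list, at 2 in KO1, 1 in KO2 and 0 in control cells (1.02% of all genes). ID1, an inhibitor of helix-loop-helix factors, held 1, 3 and 11 peaks, and ID3 held 0, 1 and 9. Ligand genes had peaks at 2, 5 and 7 of 11, with 0, 1 and 6 at BMP7, 1, 2 and 3 at GDF11 and 1, 2 and 2 at BMP4. BMP4 tied in control cells with TGFB1 and TGFB2, at 0, 0 and 2 each, and with GDF15, at 0, 1 and 2. The other receptors had them at 3, 6 and 8 of 11, with 1, 0 and 4 at BMPR2, 0, 2 and 3 at ACVR1 and 1, 5 and 3 at TGFBR3. Of the other SMADs, SMAD1 held 0, 0 and 1, SMAD5 held 0, 1 and 0, and SMAD9 held none. No other gene of the 53 held as many control peaks as SMAD3 or TGFBR2. For Flag-actin, 21, 29 and 35 of the 53 genes held a peak in KO1, KO2 and control cells, against 32.4%, 45.6% and 48.3% of all genes. Of the 53, 17 held fewer Flag-actin peaks in each KO list (28.5% of all genes), 6 held more in each (6.62%), and 4 held peaks in both KO lists and none in control cells (5.19%).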

How the data were processed

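The data were 8 peak lists, each from 1 CUT&RUN library. The submitters' processing notes name Trim Galore 0.4.5, FastQC 0.12.0, BWA, SAMtools, SEACR, MACS2, bedtools 2.30.0 and deepTools, without settings, and hg38 as the build. The deposited lists hold the total and maximum signal of each peak, as the authors' peak caller gave them, with its scaling not given in the sources used here. Their layout is that of SEACR. With a numeric threshold SEACR keeps a top fraction of signal blocks, so a count of peaks is no measure of binding.

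Only chromosomes 1 to 22, X and Y were used, leaving out 2.11% to 4.04% of a list. Overlap meant at least 1 shared base, computed with pandas 2.3.3 and numpy 2.4.6 under Python 3.11.15, and intervals came from scipy 1.17.1. On simulated data the overlap functions gave 0 disagreements with bedtools 2.31.1 over 15000 intervals. RefSeq tables gave gene spans (GRCh38) and start windows (GRCh38.p14) but no exons, so whether a peak lies in an exon, intron or UTR was not determined.

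The members and lists were chosen with earlier results of these data known. By rule the text gives all 10 genes, the 3 highest ranked peaks of each per antibody and library, peaks at shared sites, and the 3 genes of each other list with most BRG1 control peaks. One gene that this rule names is not reported here. Further peaks, at starts and at SMAD7, TGIF1, SMAD3 and TGFBR2, were singled out after their values were seen. Alternatives were other windows, equal list lengths, a stricter overlap, other uses of IgG, narrow peaks left out and each KO library left out.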

Additional observations from a re-analysis of the deposited data

How the results depend on the processing

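No paired analysis was possible because each antibody had 1 control library, and KO1 and KO2 share their numbers only between antibodies, which no test compared. Of 90 alternatives over 9 results, 58 kept the value within its error or count limit and 32 moved; those on shares of a list were chosen after seeing the data, and causes were not tested. With windows of 1 kb around gene ends, genes with no peak in either KO list and one in control cells numbered 1 for BRG1 and 3 for Flag-actin. With equal list lengths that BRG1 count was 1, without flanks the Flag-actin count was 0, and with 1 KO library left out the Flag-actin count was 1 to 2, the higher without KO2. At gene ends the share of control peaks with no KO counterpart rested on 3 BRG1 and 4 Flag-actin peaks. It was 33.3% (0.84 to 90.6) for BRG1 and 100% (39.8 to 100) for Flag-actin, too few to compare the antibodies. At equal length it was 55.3% for BRG1. KO mean minus control in peaks was −78.5 and −25.5 for BRG1 and Flag-actin with 50 kb flanks, −0.5 and −3.5 at gene ends, and −16.5 and −9.0 at equal length. The share of BRG1 control peaks that overlapped a Flag-actin peak was 0.0% (0.0 to 70.8) at gene ends, again over 3 peaks. It was 1.30% when peaks overlapping IgG, of either arm or of the same arm, were left out, and 1.27% without peaks of up to 50 bp.

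The KO minus control difference in the share of BRG1 peaks, −0.00155 percentage points, took both signs: −0.0141 without flanks, −0.0155 with 50 kb, 0.0136 at gene ends, −0.126 at equal length, −0.0607 with IgG overlaps kept, 0.0279 without narrow peaks, 0.0267 without SMAD3, and −0.00805 to 0.00496 with 1 KO library left out. For Flag-actin, −0.0448 in the main analysis, it was negative in all: −0.0348, −0.0691, −0.0130, −0.0729, −0.0340 and −0.0354 in the first 6 of these settings, and −0.0110 without SKI. Unknown depth and scaling limit all counts, since a peak absent from a list may lie just under its threshold.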

Other observations

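SMAD6 and SMAD3 are neighbours on chromosome 15, and the 282.8 kb between them, from 66782850 to 67065601, hold no other protein-coding gene in the RefSeq table. The stretch held 4 IgG-free BRG1 peaks in KO1, 10 in KO2 and 31 in control cells, and 3, 4 and 7 Flag-actin peaks. On chromosome 18, the 989 kb between SMAD2 and SMAD7, which hold CTIF and ZBTB7C, had 1, 4 and 14 BRG1 peaks and 13, 16 and 29 Flag-actin peaks. By raw count, BRG1 peaks were the more numerous beside SMAD3, though in KO1 only by 4 to 3. Beside SMAD7, Flag-actin peaks were the more numerous in all 3 cell labels. Both stretches take in the facing 10 kb flanks of their genes, so some peaks were already counted there. The BRG1 KO1 peak from 67064071 to 67064340, named above at SMAD3, is 1 of the 4. Free of IgG, the Flag-actin list was the longer in KO1 and KO2 and the shorter in control cells. The part of list length in these orders was not tested. These stretches were chosen after the positions of the genes were seen, and no test was made.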
